A study of Mus musculus with 12 samples.

Results

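The 4 libraries of experiment 1 were compared with the 8 libraries of experiments 2 and 3, to describe which genes and pathways differed between stem cell cultures that had received the same siRNAs for the same times. The libraries were assigned by the experiment number in the column names of the deposited count table, which put 4 of the 12 libraries in experiment 1, 4 in experiment 2 and 4 in experiment 3. All 12 are polyA+ RNA-seq libraries of E14tg2a.4 cells, a male mouse embryonic stem cell (mESC) line. Each experiment held 1 library from each of 4 groups: cells given 50 nM siRNA against firefly luciferase (Gl2-KD) for 24 h or 72 h, and cells given 50 nM siRNA against *Srrm2* (Srrm2-KD) for 24 h or 72 h. All cells shared the transfection reagent and a serum-free medium with LIF before collection, and the 72 h cultures received their siRNA again. In each comparison the siRNA and the time were held as covariates, so the knockdown itself is not described here. Experiment 1 is a single experiment set against a pair, and the 4 libraries of an experiment share its cultures. The p-values therefore measure the spread of libraries around their experiment and group, not the spread that further experiments would show. Differences between the cells and differences in how RNA or libraries were handled cannot be told apart, and in bulk RNA fewer cells of a type cannot be told apart from less RNA per cell.

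Mouse embryonic stem cells keep a naive pluripotent state through LIF, which signals by the receptor chains LIFR and IL6ST, the kinase JAK1 and the factor STAT3, while ERK signalling drives them towards a formative state that precedes differentiation. Naive cells grow as rounded colonies, hold little methylated DNA under conditions that block ERK, and share genes such as *Klf4*, *Tfcp2l1* and *Dppa3* with the inner cell mass. Cell spreading releases cofactors of SRF from actin monomers, and SRF then switches on genes of the contractile cytoskeleton, so that the levels of such genes vary with attachment and cell shape.

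All 10 pluripotent cell markers were above 1 CPM (counts relative to the effective size of each library) in some library and summed to 5469 to 6512 CPM in experiment 1, 6646 to 7768 in experiment 2 and 7276 to 8126 in experiment 3. The summed fibroblast markers were at 168 to 238, 259 to 309 and 150.3 to 246 CPM, with 4 of 10 above 1 CPM, and primitive endoderm markers at 92.6 to 169, 82.6 to 243 and 127 to 205 CPM. Mesoderm and blood markers stayed below 11 CPM in sum, neural markers lay between 100 and 192 CPM and trophoblast markers between 73.8 and 144 CPM in every library. The targeted *Srrm2* was at 911 and 962 CPM in Gl2-KD of experiment 1 at 24 h and 72 h, against 496 and 479 in experiment 2 and 449 and 442 in experiment 3, and Srrm2-KD left 56.7% and 47.9%, 31.0% and 37.9%, and 44.5% and 49.1% of it. Library totals ran from 73933196 to 153343831 estimated counts, and the highest and the second-lowest total both belonged to experiment 1. CPM values below were scaled with edgeR's TMM factors and are not per length. They are listed in the order Gl2-KD 24 h, Gl2-KD 72 h, Srrm2-KD 24 h and Srrm2-KD 72 h.

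Experiment 1 stood apart from the other pair across much of the transcriptome. Of 19410 genes tested with edgeR, 5297 (27.3%) were higher and 5070 (26.1%) lower in experiment 1 than in the mean of experiments 2 and 3, at an adjusted p below 0.05. Between experiments 3 and 2 the same test called 1625 genes (8.37%) higher and 1140 (5.87%) lower in experiment 3. Against each alone, experiment 1 differed at 8557 genes (44.1%) from experiment 2 and at 10259 genes (52.9%) from experiment 3. The former were 4427 higher and 4130 lower, and 5221 and 3220 when libraries were scaled by their totals alone, which moved the median of all genes in the main comparison to 0.12. In 3251 genes (16.7%) all 4 libraries of experiment 1 lay above the other 8, and in 2662 (13.7%) all 4 lay below. Over the 12870 genes with a mean of at least 1 CPM, the median absolute log2 difference was 0.44 for experiment 1 and 0.23 between experiments 3 and 2. For these genes the contrast of experiment 1 with the others took 51.0% of the sum of squares of log2 CPM over the 12 libraries, the contrast of experiment 3 with experiment 2 took 12.4%, the time point 10.8% and the siRNA 5.97%.

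The difference followed transcript length and base composition. From the quintile of genes with the shortest transcripts to the quintile with the longest, the median log2 difference of experiment 1 was -0.46, -0.30, -0.05, 0.13 and 0.56, and of the longest quintile 60.2% were higher and 6.84% lower. From the lowest to the highest quintile of GC content, it was 0.36, 0.18, 0.03, -0.18 and -0.29. Across 19314 genes, which share the same 12 libraries, Spearman's rho of the difference with length was 0.38 and with GC content -0.31, against -0.02 and 0.12 for experiment 3 minus experiment 2. The longest quintile held 24.4% to 25.9% of the counts of a library of experiment 1, and 14.8% to 16.8% in the other 8. A fit that removed the smooth trend with length and GC content in each library, called the length and GC fit below, called 4723 genes (24.3%) higher and 3724 (19.2%) lower in experiment 1, and 1856 (9.56%) higher and 1943 (10%) lower in experiment 3 than in experiment 2. Its median absolute difference was 0.29 for experiment 1, and for experiment 1 the list counts below are given from it where they differ, and the value of a gene where its call was lost or its direction turned. Over all genes tested the median log2 difference was 0.01 for experiment 1, 0.06 in the length and GC fit and 0.00 for experiment 3 minus experiment 2.

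**Figure D1:**
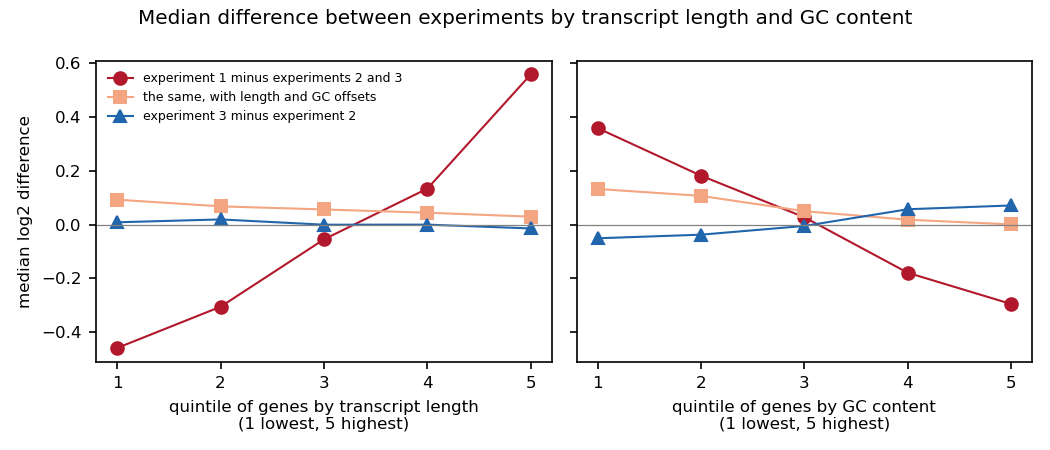
Median log2 difference of the genes in each quintile by transcript length (left) and by GC content (right). Circles are experiment 1 minus experiments 2 and 3, squares the same with length and GC offsets, and triangles experiment 3 minus experiment 2; the circles run from -0.46 to 0.56 along length and from 0.36 to -0.29 along GC content, while the triangles stay near 0.

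Gene lists placed the difference in pathways. Among the 48 lists, Y-linked genes, chromatin regulators, the LIF pathway and genes of the mitochondrial genome had the highest medians in experiment 1 (1.25, 1.12, 0.59 and 0.51), and trophoblast, fibroblast, ribosomal protein and respiratory chain genes the lowest (-0.96, -0.89, -0.88 and -0.72). Each list is described below by its counts and its median, beside the percentages called and the medians over all genes given above.

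**Figure D2:**
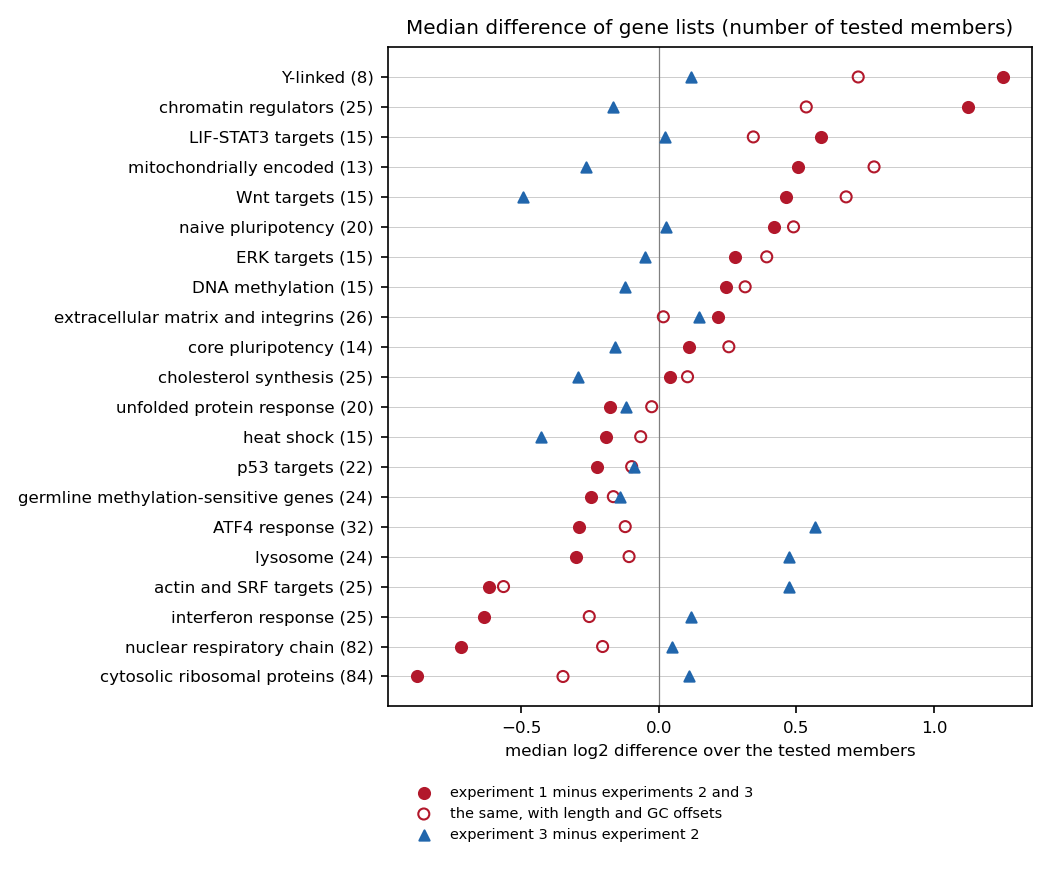
Median log2 difference over the tested members of 21 gene lists, with the number of members in brackets. Filled circles are experiment 1 minus experiments 2 and 3, open circles the same with length and GC offsets and triangles experiment 3 minus experiment 2; the ribosomal protein list moves from -0.88 to -0.35 with the offsets, while the actin list stays near -0.56.

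Naive pluripotency genes were mostly higher in experiment 1. Of 20 tested, 13 were higher and 4 lower, with a median log2 difference of 0.42, and in the length and GC fit 16 were higher and 2 lower, with a median of 0.49. *Klf4*, a target of STAT3 that sustains naive cells, was at 232, 182, 234 and 152 CPM in experiment 1 and at 62.4 to 114 CPM, median 91.6 in the other 8 libraries. The groups did not overlap, and the log2 difference was 1.13 ± 0.11, edgeR adjusted p = 9.5e-06. *Tfcp2l1*, another naive factor downstream of LIF, was at 589.9, 504, 503 and 419 CPM against 149 to 276 CPM, median 214, again without overlap (1.24 ± 0.09, edgeR adjusted p = 1.7e-06), and 0.39 in the length and GC fit. *Tbx3* (1.22), *Gbx2* (1.14) and *Prdm14* (0.92), further factors that hold cells in the naive state, were also higher, as were *Nr5a2*, *Nr0b1*, *Klf5*, *Esrrb* and *Nanog* by 0.79, 0.63, 0.49, 0.44 and 0.32 on the log2 scale. *Zfp42* did not pass the test (-0.03 ± 0.07, edgeR adjusted p = 0.76), and was called higher in the length and GC fit (0.29, edgeR adjusted p = 0.0025). The genes that went the other way included *Dppa3*, a maternal factor that protects DNA from methylation, at 8.90, 8.39, 10.1 and 9.09 CPM in experiment 1 and 40.5 to 76.02 CPM, median 53.8 in the others. All 4 libraries lay below the other 8 (-2.55 ± 0.11, edgeR adjusted p = 1.1e-07). *Sox15* (-1.05) was lower as well. The set of 10 pluripotent cell markers summed above, which shares genes such as *Klf4* with this list, had 3 higher and 3 lower. Its sum was at 5469 to 6512 CPM in experiment 1 and 6646 to 8126 CPM in the other 8 libraries.

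The core factors shared by all pluripotent states differed less. Of 14 core genes, 5 were higher and 4 lower, with a median of 0.11, against 8 higher and 1 lower in the length and GC fit, and without Srrm2-KD 72 h of experiment 1 the count of higher genes was 3. *Sox2* had a log2 difference of 0.08 ± 0.09, edgeR adjusted p = 0.48. *Pou5f1* was called lower, at 1316, 1224, 1377 and 1149 CPM against 1379 to 1956 CPM, median 1674 (-0.40 ± 0.06, edgeR adjusted p = 1.6e-04), and was called higher by 0.20, edgeR adjusted p = 0.021, in the length and GC fit. *Dppa5a*, an RNA-binding protein of early embryonic cells, was lower (-1.03). Formative and primed genes split: of 22, 8 were higher and 5 lower, with a median of -0.05, and 9 and 4, with a median of 0.17, in the length and GC fit. *Zic2* and *Cdh2* were higher by 1.15 and 1.10, and *Fgf5*, the marker of the epiblast after implantation, was at 1.76, 4.21, 1.74 and 2.67 CPM against 2.52 to 12.2 CPM, median 5.15 (-1.27 ± 0.43, edgeR adjusted p = 0.028). Its ranges overlapped, and it was not called in the length and GC fit, nor was *Otx2* (-0.70 ± 0.27, edgeR adjusted p = 0.048 without the offsets). *Dnmt3a* and *Dnmt3b*, the de novo DNA methyltransferases, had log2 differences of -0.06 and -0.18 that did not pass the test, and *Dnmt3a* was called lower by -0.86 in the length and GC fit. The count of lower formative genes was 2 without Gl2-KD 24 h or Srrm2-KD 24 h of experiment 1 or Srrm2-KD 72 h of experiment 2, and 3 without Srrm2-KD 72 h of experiment 1, Gl2-KD 72 h of experiment 2 or Gl2-KD 24 h of experiment 3.

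LIF pathway genes were higher in 7 of 15 cases and lower in none, with a median of 0.59, and 11 were higher in the length and GC fit, with a median of 0.34. *Il6st*, the signalling chain of the LIF receptor, was at 199, 168, 189.8 and 179 CPM in experiment 1 and 76.4 to 92.7 CPM, median 89.5 in the others (1.09 ± 0.06, edgeR adjusted p = 4.0e-07). *Lifr*, the other chain, was at 136, 126, 127 and 164 CPM against 57.2 to 77.4 CPM, median 72.8 (0.99 ± 0.08, edgeR adjusted p = 3.6e-06). Neither overlapped, but *Il6st* was down to 0.30 and *Lifr* to 0.10, no longer called, in the length and GC fit. *Jak1* and *Stat3* were higher by 0.73 and 0.67 and kept their calls at 0.43 and 0.28. *Socs3*, the feedback inhibitor that STAT3 induces, had a log2 difference of 0.03 ± 0.09, edgeR adjusted p = 0.79, and 0.34 in the length and GC fit, where it was called higher.

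Targets of ERK and Wnt signalling were called higher more often than lower. Of 15 ERK targets 8 were higher and 2 lower, with a median of 0.28, and in the length and GC fit 9 were higher and none lower. *Spred1*, which keeps RAS from activating RAF, was at 156, 99.6, 131 and 109.5 CPM against 28.9 to 75.5 CPM, median 49.7 in the other 8 (1.27 ± 0.08, edgeR adjusted p = 6.7e-07). *Spred2* (1.18), *Il17rd* (1.10) and *Spry4* (0.88), further inhibitors of the pathway, also lay above the other 8 in all 4 libraries. The ERK phosphatase gene *Dusp6* did not pass the test (-0.04 ± 0.11, edgeR adjusted p = 0.79). Of 15 Wnt targets, 7 were higher and 3 lower, with a median of 0.46, and 8 were higher and 1 lower in the length and GC fit, with a median of 0.68. The feedback inhibitor *Axin2* was at 19.8, 17.2, 19.3 and 18.4 CPM against 7.88 to 12.96 CPM, median 10.2 (0.87 ± 0.10, edgeR adjusted p = 4.3e-05). *Znrf3*, a ligase that removes Wnt receptors, was higher without overlap (0.97), while *Rnf43*, its paralogue, was lower (-1.44 ± 0.30, edgeR adjusted p = 0.002).

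Several basement membrane genes were higher in experiment 1 in both fits. Of 26 matrix and integrin genes, 11 were higher and 6 lower, with a median of 0.22 (0.02, with 9 higher and 5 lower, in the length and GC fit). *Nid2*, which links laminin to collagen IV, was at 498, 449, 509 and 421 CPM in experiment 1 and 94.97 to 164 CPM, median 142 in the others. The lowest library of experiment 1 exceeded the highest of the other 8 (1.80 ± 0.08, edgeR adjusted p = 1.1e-07), and the length and GC fit gave 1.63. *Lamc1* (1.43), *Nid1* (1.38), *Itgav* (1.16) and *Fn1* (1.04) were higher without overlap too. *Lamb1*, the laminin chain that pairs with *Lamc1*, was lower instead (-0.46 ± 0.09, edgeR adjusted p = 0.0011), as were *Timp2* (-1.12) and *Sparc* (-0.70). *Hspg2* was higher by 1.28 and *Lama1* by 0.58, but neither was called in the length and GC fit, where *Lama1* was at -0.16.

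Genes of the contractile cytoskeleton were much lower in experiment 1. Of 25 actin and SRF target genes, 14 were lower and 3 higher in experiment 1, with a median of -0.62, and in the length and GC fit 12 were lower and 5 higher, with a median of -0.56. *Tagln*, which bundles actin filaments in smooth muscle and spreading cells, was at 0.857, 0.603, 0.659 and 0.224 CPM in experiment 1, against 5.79, 6.32, 4.59 and 2.97 CPM in experiment 2 and 20.6, 33.2, 5.42 and 7.35 CPM in experiment 3. The highest library of experiment 1 was below the lowest of the other 8 (-3.88 ± 0.36, edgeR adjusted p = 8.3e-06). *Acta2*, smooth muscle actin, was at 0.217, 0.0897, 0.302 and 0 CPM against 0.884 to 9.57 CPM, median 2.03 (-4.05 ± 0.74, edgeR adjusted p = 8.0e-04), and *Myl9*, a myosin light chain, at 0.743, 0.864, 0.801 and 0.691 CPM against 2.72 to 12.6 CPM, median 8.15 (-3.32 ± 0.34, edgeR adjusted p = 1.3e-05). The other muscle-type members *Acta1* (-3.60), *Cnn1* (-2.79), *Cnn2* (-1.53) and *Tpm2* (-1.16) were lower without overlap. *Srf* itself had a log2 difference of -0.05 ± 0.13, edgeR adjusted p = 0.78, and the cytoplasmic actin *Actb* of -0.17 ± 0.12, edgeR adjusted p = 0.23. *Flna* (0.94), *Vcl* (0.82) and *Actn1* (0.76), which anchor filaments at adhesions, were higher without overlap. The fibroblast list shares *Acta2* and *Tagln* with this one. Of its 10 members 2 were higher and 4 lower. The separate set of 10 fibroblast markers summed above had 7 tested, with 0 higher and 3 lower. Its sum was at 168 to 238 CPM in experiment 1, inside the 150.3 to 309 CPM of the other 8. All of the smooth muscle genes were at low levels in experiment 1, with *Acta2*, *Tagln* and *Myl9* below 1 CPM, and the part of other cell types in the difference was not tested.

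Keratins of simple epithelia went the same way. *Krt18* was at 4.57, 4.98, 4.95 and 3.66 CPM in experiment 1, 13.5, 31.1, 14.3 and 26.1 CPM in experiment 2 and 45.8, 77.4, 29.4 and 46.7 CPM in experiment 3 (-2.74 ± 0.22, edgeR adjusted p = 3.3e-06). Its partner *Krt8* was at 6.83, 5.81, 6.18 and 3.18 CPM against 14.2 to 57.2 CPM, median 20.6 (-2.23 ± 0.22, edgeR adjusted p = 9.9e-06). Neither overlapped. Both are also trophoblast markers: of the 11 tested trophoblast genes 2 were higher and 5 lower, and 2 and 4 in the length and GC fit, with *Krt7* at -1.70 and *Gata3* at -1.43, and the defining gene *Cdx2* did not pass the test (-1.21 ± 1.00, edgeR adjusted p = 0.33). The separate set of 8 trophoblast markers summed above, without *Krt8* and *Krt18*, had 2 higher and 3 lower. Its sum was at 106 to 138 CPM in experiment 1 and 73.8 to 144 in the other 8.

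**Figure D3:**
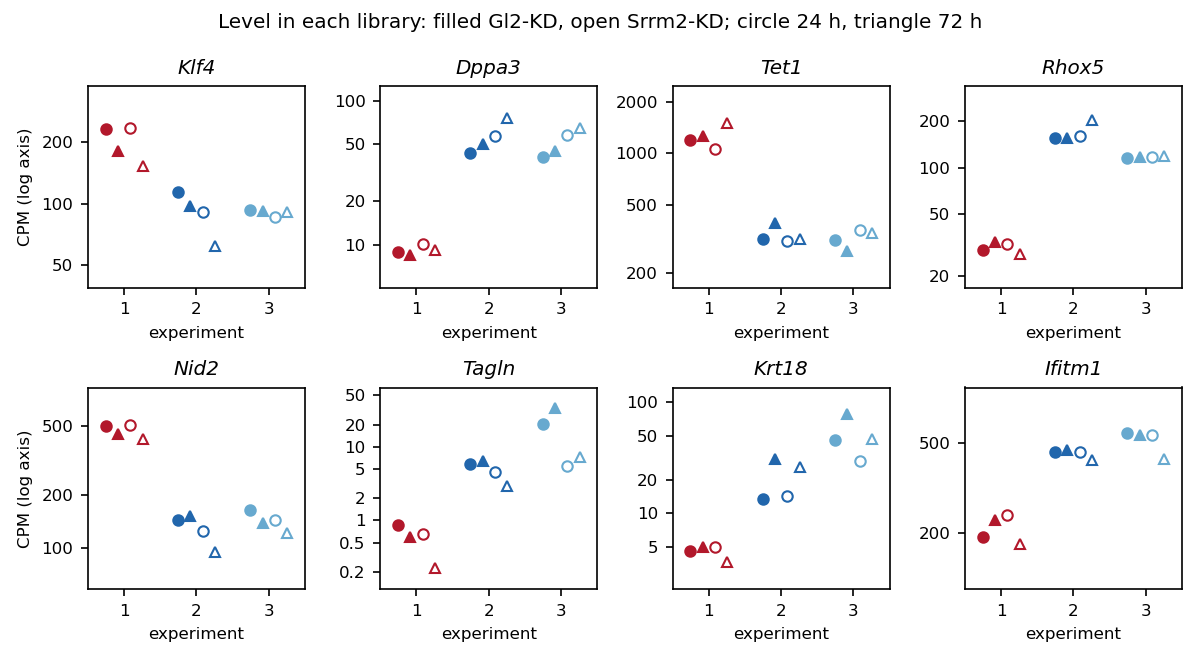
Level of 8 genes in each of the 12 libraries, in CPM on a log axis, by experiment; filled symbols are Gl2-KD, open symbols Srrm2-KD, circles 24 h and triangles 72 h. *Klf4*, *Tet1* and *Nid2* lie higher in all 4 libraries of experiment 1 than in the other 8, and *Dppa3*, *Rhox5*, *Tagln*, *Krt18* and *Ifitm1* lie lower.

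The letters of the SRF binding element, the CArG box (CC, 6 bases that are A or T, then GG, which reads the same class of letters on both strands), were looked for in RefSeq promoters of GRCm38.p6, from 250 bases before to 50 after each start site. They were found in 1.63% of 32851 promoters. Of the 25 actin genes, 20 had a promoter in the table and 7 of these held the letters; of the 7, 3 were lower and 1 higher in experiment 1. The windows of the 4 called genes are printed because 3 of them belong to the lower contractile group and the last to the higher adhesion group. Capitals mark the box, and each window is given on the strand of its gene.
Acta1, chr8:123894829-123894858, minus strand: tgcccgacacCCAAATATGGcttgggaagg
Cnn2, chr10:79988534-79988563, plus strand: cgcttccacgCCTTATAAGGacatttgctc
Myl9, chr2:156775293-156775322, plus strand: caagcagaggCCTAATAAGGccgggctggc
Vcl, chr14:20929161-20929190, plus strand: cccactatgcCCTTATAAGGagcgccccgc
*Cnn2*, which was lower, and *Vcl*, which was higher, hold the same 10 letters of the box.

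Interferon-stimulated and antigen presentation genes were lower in experiment 1. Of 25 tested, 15 were lower and 2 higher, with a median of -0.63, and in the length and GC fit 10 were lower and 3 higher, with a median of -0.25. *Ifitm1*, a membrane protein that blocks virus entry, was at 191, 228, 239.7 and 179 CPM in experiment 1 and 418 to 553 CPM, median 461 in the other 8 (-1.20 ± 0.07, edgeR adjusted p = 5.8e-07). *Isg15*, a ubiquitin-like protein, was at 0, 0.0489, 0.0246 and 0.0249 CPM against 0.0635 to 0.273 CPM, median 0.200 (-2.92 ± 0.60, edgeR adjusted p = 0.0018). *Bst2*, which tethers budding virus particles, was at 30.2, 35.02, 32.6 and 33.5 CPM against 43.7 to 149 CPM, median 93.6 (-1.40 ± 0.14, edgeR adjusted p = 1.2e-05). None of these overlapped. *B2m*, the light chain of MHC class I, was lower by -1.23 with overlapping ranges, and was not called in the length and GC fit. *Ifitm2* was called lower (-0.32), and higher by 0.31 in that fit. The signalling gene *Stat2* had a log2 difference of -0.10 ± 0.09, edgeR adjusted p = 0.33.

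The 3 *Tet* genes, which oxidise methylated DNA, were higher in experiment 1. Of 15 genes that write, remove or read DNA methylation, 7 were higher and 4 lower, with a median of 0.24, and 8 and 3 in the length and GC fit. *Tet1*, the main 5-methylcytosine dioxygenase of mESC, was at 1194, 1265, 1058 and 1513 CPM against 268 to 393 CPM, median 314. All 4 libraries exceeded the other 8 (1.94 ± 0.10, edgeR adjusted p = 2.6e-07), and the length and GC fit gave 0.76. *Tet2*, its relative and also a naive marker, was at 12.9, 11.1, 14.3 and 19.5 CPM against 0 (as listed) to 3.81 CPM, median 1.40 (3.93 ± 0.68, edgeR adjusted p = 5.6e-04), with no overlap, and *Tet3* was higher by 1.34. *Dnmt1*, the maintenance methyltransferase, was higher by 0.51, and *Dnmt3l*, the cofactor of the de novo enzymes, did not pass the test (0.14 ± 0.13, edgeR adjusted p = 0.42) but was called in the length and GC fit (0.58). *Gadd45b*, a stress response gene tied to demethylation, was lower (-1.75).

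Genes of the *Rhox* cluster, X-linked homeobox genes silenced by methylation in most tissues, were lower. *Rhox5* was at 29.5, 33.1, 31.9 and 27.8 CPM against 116 to 205 CPM, median 137 (-2.21 ± 0.10, edgeR adjusted p = 1.0e-07). *Rhox6* (-1.88) and *Rhox9* (-1.58) were also lower without overlap. Over the 24 germline genes of the list, 3 were higher and 6 lower, with a median of -0.24, and 1 and 7 in the length and GC fit; without Gl2-KD 24 h of experiment 1 the count of higher genes was 1. *Dazl* and *Hormad1* were among the higher ones (0.73 and 0.61), and *Dazl* was not called in the length and GC fit. Of 30 imprinted genes, 9 were higher and 7 lower, with a median of 0.04, against 4 and 7, with a median of -0.15, in the length and GC fit; the higher *Rian* (0.67) and *Meg3* (0.36), noncoding RNAs of one cluster, were called lower in the length and GC fit, by -0.38 and -0.80. *Nnat* was at 0.0343, 0.106, 0.105 and 0.0561 CPM against 0.161 to 0.501 CPM, median 0.280 (-1.88 ± 0.46, edgeR adjusted p = 0.005), without overlap.

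Nuclear noncoding RNAs and genes of the Y chromosome also differed. Of 14 noncoding RNA genes, 7 were higher and 3 lower, with a median of 0.36, and in the length and GC fit 4 were higher and 5 lower. *Xist*, which coats the inactive X in female cells, was at 4.29, 3.58, 2.68 and 7.57 CPM in experiment 1 and 0.264 to 0.696 CPM, median 0.398 in the others (3.31 ± 0.27, edgeR adjusted p = 3.5e-06). These levels were low in all 12 libraries. *Firre*, an X-linked nuclear RNA, was at 11.2, 15.7, 10.4 and 10.5 CPM against 1.27 to 4.77 CPM, median 2.94 (2.11 ± 0.20, edgeR adjusted p = 9.0e-06), and *Malat1* was higher by 1.19. Of 8 Y-linked genes, 5 were higher and none lower, with a median of 1.25, and 4 were higher and 2 lower in the length and GC fit, with a median of 0.73. *Ddx3y*, an RNA helicase, was at 71.5, 66.1, 60.6 and 70.4 CPM against 17.8 to 28.5 CPM, median 24.7 (1.48 ± 0.10, edgeR adjusted p = 6.9e-07). *Zfy1* (2.07), *Uba1y* (1.02) and *Uty* (1.00) were higher without overlap and *Usp9y* with overlap (1.49, and 0.53 without a call in the length and GC fit). *Eif2s3y*, a translation factor subunit, had a log2 difference of -0.21 ± 0.10, edgeR adjusted p = 0.087, and *Kdm5d* of 0.20 ± 0.16, edgeR adjusted p = 0.31, and both were called lower in the length and GC fit (-0.47 and -0.54). The 8 genes thus did not all differ alike, although the cells are of one male line.

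Among lists of short transcripts, ribosomal protein and respiratory chain genes were lower in experiment 1, and chromatin regulators, with long ones, were higher. Other lists of short or long transcripts had medians in both directions. Small nucleolar RNA genes, with a median length of 103 bases, had a median of -0.29. Genes of the mitochondrial genome and replication-dependent histone genes, with median lengths of 784 and 586 bases, had medians of 0.51 and 0.11. The fibroblast list, with a median length of 5456 bases, had a median of -0.89. A mean of at least 5 CPM was reached by 0 of 59 histone genes and 4 of 10 fibroblast genes. The part of length in these medians was not tested. Of 84 cytosolic ribosomal protein genes, 80 were lower in experiment 1 and none higher, with a median of -0.88, and they took 5.51% to 6.40% of a library there and 8.33% to 11.95% in the others. Of 82 nuclear genes of the respiratory chain, 75 were lower, with a median of -0.72. Both lists have short transcripts, with medians of 1108 and 992 bases, and in the length and GC fit their medians were -0.35 and -0.20, with 74 and 42 genes lower. Of 25 chromatin regulators, with a median transcript length of 9566 bases, 23 were higher and none lower, with a median of 1.12, and 17 were higher and 3 lower in the length and GC fit, with a median of 0.54. *Kmt2c*, a methyltransferase of histone H3 lysine 4 at enhancers, was at 119, 102, 105 and 123 CPM against 21.01 to 28.7 CPM, median 26.9 (2.10 ± 0.09, edgeR adjusted p = 1.1e-07), without overlap, and its difference in that fit was 0.92. *Crebbp* was higher by 0.41 and called lower by -0.47 in that fit, and *Nsd1* was higher by 1.02 and at -0.07 in it, not called.

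Genes of the mitochondrial genome, which are transcribed together as long precursors and then cut apart, differed in opposite directions. Of the 13 protein-coding ones, 9 were higher and 4 lower in experiment 1, with a median of 0.51 (0.78 in the length and GC fit). Together they took 3.804% to 4.171% of a library in experiment 1 and 2.32% to 3.36% in the other 8. *mt-Nd5*, a subunit of complex I, was at 2417, 2316, 2705 and 2519 CPM against 934 to 1343 CPM, median 1148 (1.11 ± 0.09, edgeR adjusted p = 2.3e-06). *mt-Co2*, a subunit of complex IV, was at 686, 554, 505 and 537 CPM against 930.4 to 2783 CPM, median 1256 (-1.27 ± 0.20, edgeR adjusted p = 2.5e-04). Neither overlapped, and the directions were opposite in both fits. *mt-Nd4l* (2.32) and *mt-Atp8* (1.17), which overlap *mt-Nd4* (0.83) and *mt-Atp6* (0.33) in sequence, were the highest. Whether the division of shared reads plays a part in their values was not tested. *mt-Nd3* (-1.06), *mt-Co3* (-0.73) and *mt-Nd6* (-0.98), the last coded on the other strand, were lower.

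**Figure D4:**
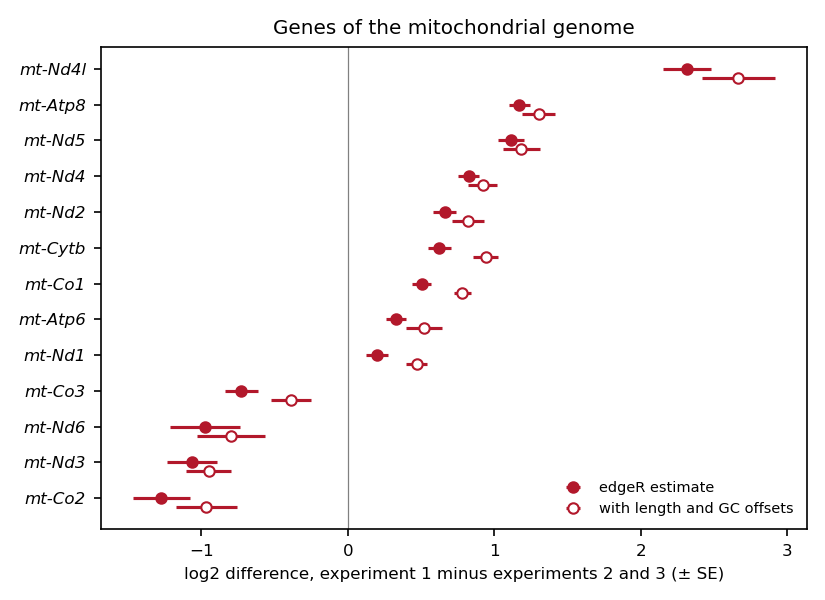
Log2 difference of experiment 1 from experiments 2 and 3 for the 13 protein-coding genes of the mitochondrial genome, with bars of 1 standard error. Filled circles are the edgeR estimate and open circles the estimate with length and GC offsets; 9 genes lie above 0 and 4 below in both.

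Stress and metabolic lists differed less than these. Lysosomal genes were lower in 11 of 24 cases and higher in 2, with a median of -0.30 (7 lower and 5 higher in the length and GC fit), led by *Ctsz* (-0.91), *Ctsl* (-0.89) and *Neu1* (-0.83), while *Npc1*, which exports cholesterol from lysosomes, was higher (1.27 ± 0.09, edgeR adjusted p = 1.7e-06). Of 32 ATF4 response genes, 9 were lower and 2 higher, with a median of -0.29, against 5 lower and 4 higher, with a median of -0.12, in the length and GC fit; without Srrm2-KD 24 h of experiment 1 the count of lower genes was 18, and without Srrm2-KD 24 h of experiment 3 it was 16. *Phgdh*, the entry enzyme of serine synthesis, was at 98.4, 85.9, 114 and 85.5 CPM against 157 to 311 CPM, median 227 (-1.19 ± 0.13, edgeR adjusted p = 2.7e-05), without overlap. NRF2 targets were lower in 9 of 20 cases and higher in 4 (8 and 3 in the length and GC fit), with *Gstm1* at -1.15; without Srrm2-KD 72 h of experiment 1, 1 was higher. Fatty acid synthesis genes were higher in 7 of 13 cases and lower in 1, with a median of 0.39, which was 0.08, with 5 higher and 1 lower, in the length and GC fit. *Fads1*, a desaturase, was at 80.5, 58.6, 76.4 and 72.9 CPM against 21.5 to 35.98 CPM, median 29.8 (1.25 ± 0.13, edgeR adjusted p = 1.4e-05), without overlap. Immediate early genes were lower in 7 of 20 cases and higher in 2, with a median of -0.29, but 4 were lower and 4 higher, with a median of 0.08, in the length and GC fit. Among the lower ones were *Ccn1* at -2.33 ± 0.39, edgeR adjusted p = 4.2e-04, and *Ier5* at -1.92 ± 0.17, edgeR adjusted p = 5.4e-06. Glycolysis genes had a median of -0.27, and of -0.09 in the length and GC fit. Genes of DNA replication had 5 of 23 higher and 10 lower, with a median of -0.13, and 5 and 7 in the length and GC fit. Genes of mitosis had 5 of 24 higher and 8 lower, with a median of -0.04, and 3 and 8 in the length and GC fit. Of 33 spliceosome genes, 10 were higher and 4 lower, with a median of 0.07, and 10 were higher and 10 lower in the length and GC fit. *Son*, which shares nuclear speckles with SRRM2, was at 385, 448, 358 and 515 CPM against 114 to 219 CPM, median 200 (1.24 ± 0.13, edgeR adjusted p = 1.9e-05), without overlap.

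The protein-coding genes with the largest differences, among those with a mean of at least 5 CPM, included genes close to absent in one set of libraries. *Arhgap5*, a GTPase-activating protein, was at 70.4, 74.9, 56.6 and 78.8 CPM in experiment 1 and 0.0528 to 0.587 CPM, median 0.436 in the others (7.71 ± 0.41, edgeR adjusted p = 2.6e-07). *Ube3a*, an imprinted ubiquitin ligase, was at 25.1, 37.2, 15.3 and 46.8 CPM against 0 (as listed) to 1.04 CPM, median 0 (7.32 ± 0.95, edgeR adjusted p = 7.8e-05), and shares its locus with *Snhg14* on the other strand. In the other direction *Zfp654*, a zinc finger gene, was at 0.251, 0, 0.758 and 0 CPM against 10.4 to 15.99 CPM, median 13.6, and *D3Ertd254e* was listed at 0 in all 4 libraries of experiment 1 and at 5.62 to 11.3 CPM, median 9.13 in the others, so that the mean of the other 8 is at least 258-fold higher than a floor of 3 counts in the library of experiment 1 where that floor is highest. Of the 10170 genes with a mean of at least 5 CPM, 8 had a gap of more than 10-fold between experiment 1 and the other 8 libraries, 5 of them higher and 3 lower, and 3 of the 8 are processed pseudogenes. Between experiments 2 and 3 there were none. Kallisto divides reads that fit several transcripts by likelihood, and whether such a division accounts for the gaps was not tested. *Dnah8* (10.60), *Dop1b* (5.22), *Clock* (5.20), *Maz* (4.31), *Myof* (4.30), *Robo1* (4.25) and *Zfp518a* (4.06) completed the higher genes, with *Gm28036*, *Gm21962* and *Gm38394*, of which *Gm28036* and *Gm38394* overlap other genes. Of these, *Clock*, the circadian transcription factor, was at 23.7, 25.3, 24.2 and 27.1 CPM against 0 (as listed) to 3.04 CPM, median 1.36, and was listed at 0 in Srrm2-KD 72 h of experiments 2 and 3. *Maz* overlapped, at 16.7 to 55.7 CPM in experiment 1 and 45.3 CPM in Gl2-KD 24 h of experiment 2. *Dnah8*, which overlaps *Glo1* on the other strand, was at 16.4, 0, 6.24 and 0 CPM in experiment 2. *Zfp799* (-7.23), *Tyk2* (-4.13), *Ccnk* (-2.90), *Arhgef3* (-2.82), *S100a13* (-2.75, with overlap) and *Car4* (-2.57) completed the lower ones, beside *Tagln*, *Myl9*, *Krt18* and *Dppa3*.

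The remaining lists had few calls or calls in both directions. Of 11 Nodal pathway genes 3 were higher and 2 lower (6 and 1 in the length and GC fit), and the 2 were the inhibitors *Lefty2* (-1.67 ± 0.31, edgeR adjusted p = 9.4e-04) and *Lefty1* (-1.18, not called in the length and GC fit). Of 15 BMP pathway genes 5 were higher and 3 lower, which turned to 3 higher and 5 lower in the length and GC fit, with the signal effector *Id2* at -1.17. Of 17 Notch genes 6 were higher and 6 lower (3 and 4 in the length and GC fit), receptors such as *Notch2* (0.96, and 0.15 without a call in the length and GC fit) on one side and ligands such as *Dll3* (-1.07) on the other. Of 15 receptor genes for serum factors 4 were higher and 1 lower, against 1 higher and 5 lower in the length and GC fit. The 4 included *Kit*, the receptor of stem cell factor, at 81.7, 82.3, 73.7 and 59.1 CPM against 10.4 to 30.96 CPM, median 21.4 (1.81 ± 0.16, edgeR adjusted p = 5.2e-06), without overlap. Primitive endoderm genes were higher in 3 of 16 and lower in 3, and mesoderm genes lower in 2 of 13, against 2, 2 and 1 in the length and GC fit. Hypoxia genes were higher in 6 of 20 and lower in 6 (4 and 3 in the length and GC fit), with the histone demethylase gene *Kdm3a* at 197, 256, 177 and 260.3 CPM against 21.7 to 69.5 CPM, median 53.7 (2.27 ± 0.22, edgeR adjusted p = 9.4e-06), without overlap, and iron genes were higher in 3 of 11 and lower in 3 (1 and 2 in the length and GC fit). Heat shock genes were lower in 4 of 15 and higher in none, with a median of -0.19, and 6 were lower and 1 higher in the length and GC fit.

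Some printed counts of a list moved by more than 1.5 times for experiment 1 when 1 library was left out. Where the larger count was at least 3, the libraries are named beside them. Moves of smaller counts are not listed. For the following lists, whose counts moved as much, only medians are given. They were 0.04 for 25 cholesterol synthesis genes, -0.18 for 20 genes of the unfolded protein response, -0.22 for 22 p53 targets, -0.06 for 19 serine and one-carbon genes and -0.30 for 7 metallothionein and zinc genes. They were 0.44 for 18 genes of the 2-cell-like state, 0.11 for 59 replication-dependent histone genes, whose mRNAs lack a polyA tail, and -0.29 for 54 small nucleolar RNA genes. In the length and GC fit the first 5 were at 0.10, -0.03, -0.10, -0.10 and 0.04, and the last 3 at 0.63, 0.60 and 0.31. Blood genes, with 2 of 6 higher (1 in the length and GC fit), were close to the limit of detection in most libraries. Of the 18 2-cell-like genes, 1 had a mean of at least 5 CPM. A separate set of 2-cell-like markers summed to 5.32 to 40.2 CPM in experiment 1, 5.55 to 39.6 in experiment 2 and 4.45 to 11.9 in experiment 3. The median of the list was -0.88 for experiment 3 minus experiment 2, and -0.83 for the change of the experiment 1 difference from 24 h to 72 h. Of 16 neural genes 4 were higher and 2 lower, with a median of 0.20 (5 and 2 in the length and GC fit), and without Gl2-KD 72 h of experiment 3 the count of higher genes was 7. *Sox1* and *Pax6*, early neural factors, were higher without overlap, *Sox1* at 1.47, 1.62, 1.56 and 1.11 CPM against 0.211 to 0.912 CPM, median 0.538 (1.53 ± 0.30, edgeR adjusted p = 0.0015), and *Pax6* by 1.35. The lower ones were *Nes*, an intermediate filament of progenitors, at 12.02, 23.8, 13.1 and 17.3 CPM against 25.7 to 49.8 CPM, median 34.97 (-1.12 ± 0.14, edgeR adjusted p = 6.5e-05), without overlap, and *Fabp7* (-3.18), which stayed below 1 CPM in every library.

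Experiments 2 and 3 differed from each other too, in fewer genes. Of the lists described above, the actin, lysosome and immediate early lists were among those with many calls in this comparison as well. Immediate early genes were higher in experiment 3 in 8 of 20 cases and lower in 0, with a median of 0.33. This count was 5 without Gl2-KD 24 h or Srrm2-KD 24 h of experiment 2 or Gl2-KD 24 h of experiment 3. The ATF4 response, lysosomal and actin lists were higher in experiment 3, and heat shock and cholesterol synthesis genes lower, while the naive pluripotency and ribosomal protein lists had medians of 0.02 and 0.11. The counts in this contrast depended on single libraries far more than those of experiment 1. The total of 2765 genes called was 566 without Gl2-KD 24 h, 1686 without Gl2-KD 72 h and 510 without Srrm2-KD 24 h of experiment 2, and 1140 without Gl2-KD 24 h, 956 without Gl2-KD 72 h and 914 without Srrm2-KD 72 h of experiment 3. With the 6 Gl2-KD or the 6 Srrm2-KD libraries fitted alone, it was 108 and 5.

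ATF4 drives amino acid synthesis and transport when translation initiation is restrained. Of 32 genes of this response, 10 were higher and 1 lower in experiment 3, with a median of 0.57. *Atf3*, a transcription factor that ATF4 induces, was at 0.798, 1.33, 0.636 and 1.18 CPM in experiment 2 and 3.83, 4.86, 2.10 and 6.48 CPM in experiment 3 (2.11 ± 0.37, edgeR adjusted p = 0.0082). *Vldlr*, a lipoprotein receptor, was at 1.36, 4.28, 1.22 and 4.32 CPM and 9.73, 8.16, 4.49 and 9.49 CPM (1.56 ± 0.43, edgeR adjusted p = 0.037). *Pycr1*, of proline synthesis, was at 34.2, 67.7, 28.4 and 55.4 CPM and 78.3, 118, 47.4 and 106 CPM (0.92 ± 0.25, edgeR adjusted p = 0.034). The 2 experiments did not overlap for *Atf3* and *Vldlr*. For *Pycr1* they did, although each library of experiment 3 exceeded the library of experiment 2 with the same siRNA and time. *Atf4* itself was higher by 0.58 and *Ddit3* by 1.08. The count of higher genes was 1 without Gl2-KD 24 h or Srrm2-KD 24 h of experiment 2, 5 without its Gl2-KD 72 h, 3 without Gl2-KD 24 h or Gl2-KD 72 h of experiment 3, 2 without its Srrm2-KD 72 h, 16 without Srrm2-KD 24 h of experiment 1 and 20 without Srrm2-KD 24 h of experiment 3.

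The letters TGATGNAA, those of the element through which ATF4 acts with a C/EBP partner, were searched on both strands of the same promoters and stood in 3.97% of 32851. Of the 32 genes, 26 had a promoter in the table and 9 held the letters; of the 9, 3 were higher in experiment 3. The windows of 4 of the 9 are printed, *Atf3* and *Pycr1* because they were higher in experiment 3, and *Chac1* and *Nupr1* because of their change with time given below. Capitals mark the element, and each window is given on the strand that reads it as written.
Atf3, chr1:191183425-191183454, plus strand, gene on minus: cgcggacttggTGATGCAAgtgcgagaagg
Pycr1, chr11:120643833-120643862, minus strand, gene on minus: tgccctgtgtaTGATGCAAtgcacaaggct
Chac1, chr2:119351038-119351067, minus strand, gene on plus: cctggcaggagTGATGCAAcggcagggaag
Nupr1, chr7:126625562-126625591, plus strand, gene on minus: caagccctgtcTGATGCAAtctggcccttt
All 4 hold the same 8 letters, and a match describes the letters, not a bound site.

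Lysosomal genes were higher in experiment 3 in 14 of 24 cases and lower in none, with a median of 0.47. *Hexa*, a hexosaminidase that breaks down gangliosides, was at 51.4, 74.9, 47.1 and 53.5 CPM in experiment 2 and 122, 214, 77.6 and 130.5 CPM in experiment 3 (1.22 ± 0.18, edgeR adjusted p = 0.0049), and *Neu1*, the lysosomal sialidase, was at 19.4, 29.1, 15.7 and 21.2 CPM and 37.8, 77.9, 24.9 and 45.1 CPM (1.04 ± 0.12, edgeR adjusted p = 0.0026). *Glb1* (0.68), *Asah1* (0.77) and *Ctsa* (0.68), other hydrolases or their partners, were higher as well. The 2 experiments did not overlap for *Hexa*, and for *Neu1* they overlapped although every matched pair had the higher value in experiment 3. The count was 4 to 9 without any 1 of the 4 libraries of experiment 2 (Gl2-KD 24 h 5, Gl2-KD 72 h 7, Srrm2-KD 24 h 4, Srrm2-KD 72 h 9) and 7 without Gl2-KD 24 h, Gl2-KD 72 h or Srrm2-KD 72 h of experiment 3. Actin and SRF targets were higher in 10 of 25 cases and lower in none, with a median of 0.47: *Krt18*, listed above, by 1.23 ± 0.23, edgeR adjusted p = 0.0094, *Tagln* by 1.54 ± 0.34, edgeR adjusted p = 0.018, and *Acta1* by 2.30 ± 0.42, edgeR adjusted p = 0.0097. This count was 6 without Srrm2-KD 72 h of experiment 2, and 3 without any other library of experiment 2 or any library of experiment 3 but Srrm2-KD 24 h. With each time fitted alone, 4 actin genes were higher and 6 lower at 24 h, and 13 higher and none lower at 72 h.

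Heat shock and cholesterol synthesis genes were lower in experiment 3. Of 15 heat shock genes 7 were lower and none higher, with a median of -0.43. *Hspa1b*, an inducible HSP70, was at 40.7, 61.8, 24.2 and 24.4 CPM in experiment 2 and 14.2, 13.2, 8.55 and 9.30 CPM in experiment 3 (-1.62 ± 0.33, edgeR adjusted p = 0.014), without overlap. *Hspa1a* (-1.57), the near-identical copy that shares reads with it, *Hsph1* (-1.09), *Dnaja1* (-0.68) and *Hspd1* (-0.63) were lower too. Without 1 library the count was 0 (Gl2-KD 24 h or Srrm2-KD 24 h of experiment 2), 1 (Srrm2-KD 72 h of experiment 3), 2 (Gl2-KD 72 h of either), 3 (Srrm2-KD 72 h of experiment 2) or 4 (Gl2-KD 24 h of experiment 3). Of 25 cholesterol synthesis genes 8 were lower and none higher, with a median of -0.29, among them *Idi1*, an isomerase of the isoprenoid steps (-0.53 ± 0.14, edgeR adjusted p = 0.029). With each time fitted alone, 3 were higher and 3 lower at 24 h and 14 lower at 72 h, and without 1 library the count was 4 (Gl2-KD 24 h or Gl2-KD 72 h of experiment 2, Gl2-KD 24 h of experiment 3), 3 (Srrm2-KD 72 h of experiment 2), 2 (Srrm2-KD 24 h of experiment 2, Gl2-KD 72 h of experiment 3) or 1 (Srrm2-KD 72 h of experiment 3).

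**Figure D5:**
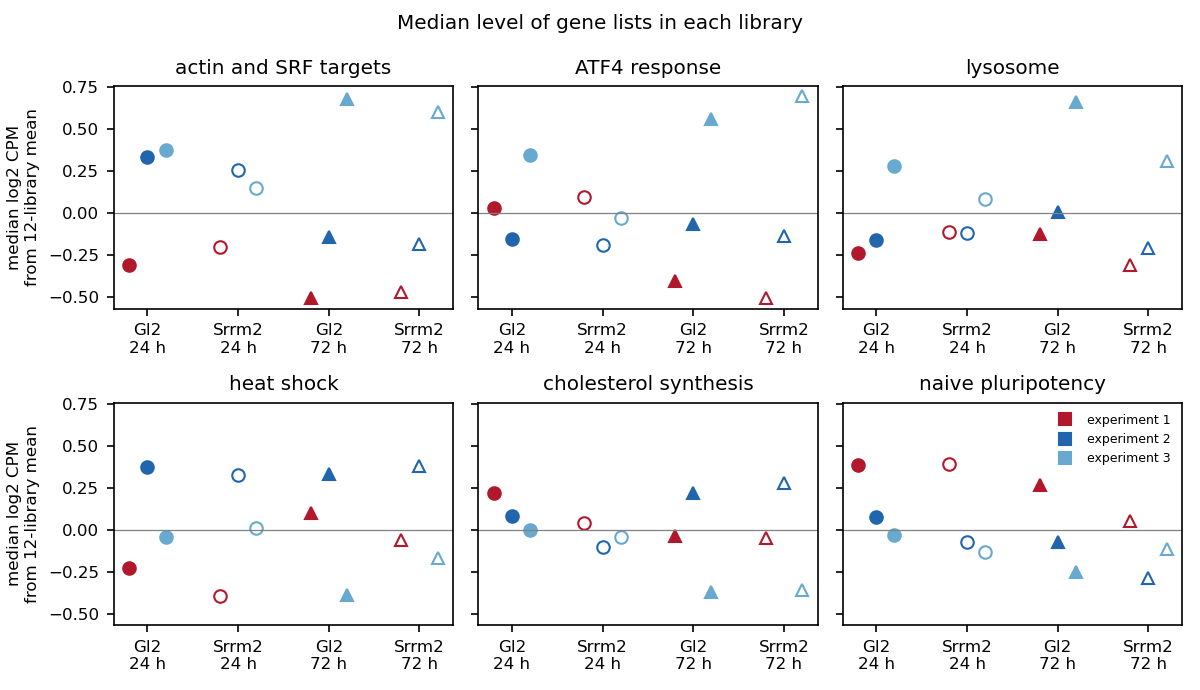
Median, over the members of 6 lists, of log2 CPM relative to the mean of the 12 libraries, for each library by siRNA and time; colours mark the experiment, filled symbols Gl2-KD, open symbols Srrm2-KD, circles 24 h and triangles 72 h. In all 4 conditions the actin list is lowest in experiment 1, the lysosome list is higher in experiment 3 than in experiment 2, and the heat shock list is highest in experiment 2.

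Single genes separated experiments 2 and 3 as well. *Id1*, a BMP-induced inhibitor of basic helix-loop-helix factors, was at 56.7, 11.03, 55.3 and 16.8 CPM in experiment 2 and 11.9, 3.84, 11.98 and 4.26 CPM in experiment 3 (-2.04 ± 0.38, edgeR adjusted p = 0.01). *Nefh*, a neurofilament subunit, was at 57.6, 27.6, 55.9 and 29.6 CPM and 8.35, 6.02, 11.7 and 6.17 CPM (-2.39 ± 0.27, edgeR adjusted p = 0.0019). Both were lower in experiment 3 in all 4 matched pairs of libraries, and *Nefh* without overlap. *Sall3* (-2.35), *Coch* (-2.05), *Gm28036* (-4.46) and *Maz* (-3.31) followed them. *Tmprss13*, a membrane protease, was at 2.72, 5.54, 2.75 and 4.80 CPM and 12.4, 19.8, 12.1 and 18.2 CPM (2.005 ± 0.24, edgeR adjusted p = 0.0024), without overlap. *Acss1* (1.97), *S100a13* (1.90), *Pdpn* (1.88), *Mef2b* (1.88, overlapping *Borcs8*) and *Gprc5c* (1.86) were higher in experiment 3 in every matched pair. *Gbx2*, a naive factor that was higher in experiment 1, was also lower in experiment 3 than in experiment 2, at 11.3, 6.15, 12.6 and 5.67 CPM against 40.97, 14.8, 34.6 and 15.2 CPM (-1.51 ± 0.17, edgeR adjusted p = 0.0019). Wnt targets were lower in 4 of 15 cases and higher in 1, with *Sp5* at -1.12 and *Notum* at -0.68; the count of lower genes was 1 without Gl2-KD 24 h or Srrm2-KD 24 h of experiment 2 or without Gl2-KD 24 h, Gl2-KD 72 h or Srrm2-KD 72 h of experiment 3, and 2 without Gl2-KD 72 h of experiment 2.

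The difference of experiment 1 changed between 24 h and 72 h at 1865 genes, 824 (4.25%) upwards and 1041 (5.36%) downwards, in a fit with a term for this change. ATF4 response genes stood out in number, with 23 of 32 lower at 72 h relative to 24 h, none higher, and a median change of -0.80. *Chac1*, which degrades glutathione, was at 32.1, 11.3, 32.8 and 8.16 CPM in experiment 1, 13.6, 15.2, 10.2 and 13.7 CPM in experiment 2 and 32.2, 46.4, 16.6 and 69.3 CPM in experiment 3 (change -2.55 ± 0.32, edgeR adjusted p = 0.0053). *Nupr1* changed by -2.004 ± 0.25, edgeR adjusted p = 0.0053, and *Mthfd2*, a mitochondrial folate enzyme, by -1.45 ± 0.16, edgeR adjusted p = 0.0052. At 24 h alone 11 ATF4 genes were higher and 5 lower in experiment 1, and at 72 h alone 2 were higher and 23 lower. The count of 23 was 7 without Srrm2-KD 24 h and 11 without Srrm2-KD 72 h of experiment 1, 13 without Gl2-KD 24 h and 15 without Srrm2-KD 24 h of experiment 2, and 15 without Srrm2-KD 24 h of experiment 3.

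Other stress lists had medians of the opposite sign. They were 0.42 for the unfolded protein response of the endoplasmic reticulum, 0.38 for NRF2 targets, 0.33 for p53 targets and 0.31 for heat shock genes, against 0.02 over all genes. How many of their members were called rested on single libraries, so no counts are given. *Hspa5*, the main chaperone of the endoplasmic reticulum, was at 316, 513, 306 and 513 CPM in experiment 1, 721, 581, 703 and 633 CPM in experiment 2 and 384, 369, 426 and 329 CPM in experiment 3 (change 0.95 ± 0.11, edgeR adjusted p = 0.0053). Its level was higher at 72 h than at 24 h in experiment 1 with both siRNAs. *Pdia4* (0.84), the antioxidant genes *Srxn1* (0.79) and *Gclc* (0.64), and *Perp* (1.01), a p53 target, also changed upwards. *Id1* was at 6.58, 8.23, 7.91 and 8.78 CPM in experiment 1, with its levels in the other experiments given above, and changed upwards (2.03 ± 0.17, edgeR adjusted p = 0.0019). Among protein-coding genes with a mean of at least 5 CPM, *Picalm*, *Clock*, *Spink1* and *Xkr6* had the largest upward changes beside *Id1* (4.31, 3.72, 2.16 and 1.95), and *Zfp654*, *Arhgef3*, *Ubap1l* and *Adgrd1* the largest downward ones beside *Chac1* (-8.82, -3.22, -2.49 and -2.45).

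The difference of experiment 1 was not shown to depend on the siRNA. In a fit with a term for a difference between Srrm2-KD and Gl2-KD, edgeR called 0 of 19410 genes (0%), 327 had an unadjusted p below 0.05, and DESeq2 called 9.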

How the data were processed

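PolyA+ RNA of E14tg2a.4 cells was measured in 12 libraries, 3 experiments with 4 groups of siRNA and time each. Per the labels and the study's methods, the authors ran Kallisto 0.46.1 on paired-end reads of 100 bp against GENCODE M24 transcripts (mm10). The deposited values are estimated counts, summed to genes, with no scaling for library size. The way transcripts were summed and the RNA processing day of each library, a covariate of the authors, are not given in the sources used here. Gene symbols, biotypes, transcript lengths and GC content came from a reference annotation, an earlier GENCODE release than M24. The length and GC content of a gene are those of its longest transcript there, whether or not that transcript was expressed. Among 42450 gene rows, 42156 were matched to the reference by identifier, and the other 294 held 0.175% of the counts.

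Counts, of which 33.8% to 43.0% per library were not whole, were rounded. Genes passed filterByExpr of edgeR 4.0.16 (minimum count 10, minimum total 15), which left 19410. One fit of all 12 libraries in R 4.3.3, with TMM factors, 4 group terms and 3 experiments, was tested with glmQLFit (legacy=TRUE) and glmQLFTest for experiment 1 against the mean of experiments 2 and 3, experiment 3 against 2, and experiment 1 against each. Other fits added the change of the difference with time or with siRNA. A call needs an adjusted p (Benjamini-Hochberg) under 0.05. Values after ± are approximate standard errors, the absolute log2 difference divided by the square root of the test's F statistic. The biological coefficient of variation (common) came to 0.22, on 6 residual degrees of freedom. The length and GC fit, chosen after the trend was seen, added an offset for each gene and library from natural splines (5 degrees of freedom each) of log2 CPM on transcript length and GC content. The script was tested on simulated data. Alternatives used DESeq2 1.42.0, limma 3.58.1 with voom, other scalings, filters and terms, libraries of 1 time or 1 siRNA, and leaving out each library.

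The comparison, the 48 gene lists and the rules for naming genes were chosen with earlier results of these data known. Named genes are, for each comparison, the protein-coding genes with the largest differences at a mean of at least 5 CPM on one side of the matched libraries (12 each way for experiment 1, 6 each way for experiment 3 against 2, and 5 each way for time), the called members with the largest differences in each list, up to 4, and defining genes of the lists. Further members, printed for their role, were chosen after their values were seen. Some genes that these rules name are not reported here. Promoter windows are RefSeq sequence of GRCm38.p6.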

Additional observations from a re-analysis of the deposited data

Results flagged for a closer look

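The difference of experiment 1 from experiments 2 and 3 changed between 24 h and 72 h at 1865 genes, by edgeR's test of the change itself. This count was 975 without Gl2-KD 24 h, 706 without Gl2-KD 72 h, 188 without Srrm2-KD 24 h and 484 without Srrm2-KD 72 h of experiment 1, 481 without Gl2-KD 24 h and 691 without Srrm2-KD 24 h of experiment 2, and 624 without Srrm2-KD 24 h of experiment 3. The genes named in the report that were called in this test are listed with their log2 change, whatever the reason for which they were named.

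Upward changes, in which experiment 1 stood higher relative to the others at 72 h than at 24 h, were measured for *Picalm* (4.31), *Clock* (3.72), *Spink1* (2.16), *Id1* (2.03), *Xkr6* (1.95), *Coch* (1.71), *Hspa1a* (1.63), *Gm21962* (1.62), *Hspa1b* (1.61), *Id2* (1.42), *Nefh* (1.35), *Sall3* (1.30), *Spry4* (1.18), *mt-Nd6* (1.13) and *Kdm3a* (1.02). Smaller ones were measured for *Perp* (1.01), *Cdh2* (0.98), *Hspa5* (0.95), *Pdia4* (0.84), *Srxn1* (0.79), *Gbx2* (0.71), *Pax6* (0.66), *Dnmt3l* (0.65), *Gclc* (0.64), *Son* (0.63), *Dnaja1* (0.62), *Hspd1* (0.56) and *Actb* (0.50).

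Downward changes were measured for *Zfp654* (-8.82), *Acta2* (-3.58), *Arhgef3* (-3.22), *Chac1* (-2.55), *Ubap1l* (-2.49), *Adgrd1* (-2.45), *Mef2b* (-2.06), *Nupr1* (-2.004), *Vldlr* (-1.91), *Atf3* (-1.78), *B2m* (-1.65), *Mthfd2* (-1.45), *Car4* (-1.38), *Pycr1* (-1.26) and *Acss1* (-1.25). Smaller ones were measured for *Ddit3* (-1.21), *Tmprss13* (-1.07), *Krt18* (-1.03), *Pdpn* (-0.96), *Tbx3* (-0.87), *Krt7* (-0.86), *Ctsl* (-0.80), *Hexa* (-0.77), *Asah1* (-0.76), *Phgdh* (-0.67), *Bst2* (-0.64), *Atf4* (-0.58), *Uba1y* (-0.57), *Glb1* (-0.53) and *Sox2* (-0.44). For *Zfp654*, *Acta2* and *Clock* the change rests on libraries listed at 0, and *Hspa1a* and *Hspa1b* share reads. *Arhgef3* was listed at 0 in Srrm2-KD 72 h of experiment 1. *Picalm* was at 0.00761 and 0.0136 CPM in Gl2-KD and Srrm2-KD 72 h of experiment 3, against 2.13 and 11.6 CPM in those of experiment 2. What lies behind these changes was not tested.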

How the results depend on the processing

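The comparison of experiment 1 with the others gave 8447 (length and GC offsets) to 12009 genes in the alternatives that kept all 12 libraries, and 8885 to 10341 with 1 library left out, against 10367. It gave 6613 with Gl2-KD alone and 4904 with Srrm2-KD alone, which leave 6 libraries. These 2 settings gave 4069 and 3617 genes against experiment 2, and 6678 and 4029 against experiment 3, where 1 library left out gave 6922 to 8689 and 8858 to 10400. Experiment 3 against 2 was less stable, with 4325 genes by DESeq2, 4331 at 24 h alone, 6086 with terms for experiment and time averaged, 108 with Gl2-KD alone, 5 with Srrm2-KD alone and 510 to 3285 with 1 library left out. The change with time gave 3083 genes by DESeq2, 3403 with length and GC offsets and 188 to 1895 with 1 library left out. The change with siRNA gave 9 by DESeq2, 4 with no filter and 0 to 2 with 1 library left out. All 24 genes named for the largest differences of experiment 1 kept their call with each library left out, and 10 of them were left with at least 10 counts in every library, since the others did not pass that filter. Of the 48 lists, 23 had a median above 0, and 20 to 24 with 1 library left out.

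Among the called genes that the text names, there were 8 changes of sign. With length and GC offsets *Crebbp* was at -0.47, *Ifitm2* at 0.31, *Lama1* at -0.16, *Meg3* at -0.80, *Nsd1* at -0.070, *Pou5f1* at 0.20 and *Rian* at -0.38, and at 72 h alone *Adgrd1* was at -0.28. That fit differs from the other only in its offsets. Of the named genes' calls for experiment 1, 14 were lost with these offsets and 124 kept, and for experiment 3 against 2, 5 were lost and 60 kept. What else moved the counts was not tested.

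No paired analysis was possible because the replicate number is the experiment, which is the factor compared. This concerns pairs of libraries with the same replicate number. Libraries of different experiments were matched by siRNA and time, through the 4 group terms of the fit. With 1 experiment against 2, no value here shows how much experiments vary in general. Length and GC offsets would also remove a biological difference that follows length. Genes below about 1 CPM, such as *Acta2* and *Xist*, rest on few counts.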
